A study of Mus musculus with 4 samples.

Results

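The genes described here are 4 simple keratins (Krt7, Krt8, Krt18 and Krt19) and 6 transcription factors of the trophectoderm (Cdx2, Eomes, Elf5, Gata3, Tfap2c and Hand1), 10 of the 25170 gene symbols measured. They were taken by symbol, and all 10 were found. Levels were measured by sequencing polyadenylated RNA from mouse embryonic stem cells in 4 libraries, 1 for each group. The groups were cells given a treatment that the labels call SO (genotype labelled wild type), an Ldha knockout (Ldha_KO), an Ldhb knockout (Ldhb_KO) and the untreated wild type (WT, the E14 line). All were kept in serum and LIF on gelatin, and no feeder layer is mentioned. The series text calls SO an inhibitor. Neither its full name nor a dose or a time is stated in the labels, which also do not say whether a knockout line is 1 clone. With 1 library a group there was no replicate, no error on a level and no p-value, so each difference compares 2 libraries.

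The trophectoderm is the outer epithelium of the blastocyst and gives rise to the trophoblast of the placenta. Embryonic stem cells come from the inner cell mass, and the pluripotency factor Pou5f1 holds down the trophectoderm regulator Cdx2 in them. Simple keratins are intermediate filament proteins of single-layered epithelia. A type II keratin (Krt7 or Krt8) pairs with a type I keratin (Krt18 or Krt19) to build the filament, and Krt8 with Krt18 or Krt19 is among the first keratin pairs made in the mouse embryo.

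Genes of naive pluripotency were abundant in every library. The 10 naive pluripotency genes summed to 3135 FPKM (reads scaled by gene length and library depth) in SO, 2962 in Ldha_KO, 2960 in Ldhb_KO and 3479 in WT, and 0 of the 10 passed the 2-fold rule against WT in any of the 3. Over all genes 2.65% to 3.36% were higher and 0.472% to 1.09% lower by that rule, so 0 of 10 is near the background. Cdx2, the defining trophectoderm factor, stayed below 0.5 FPKM everywhere, as its values further down show. Of 15 placental trophoblast products, 7 (Tpbpa, Prl3d1, Prl3b1, Prl2c2, Synb, Ctsq and Hsd3b6) were listed at 0 in every library. The other 8 were detected in at least 1 library, and 4 of them reached 1 FPKM. Ldha was at 154 FPKM in Ldha_KO and 1774 in WT, and Ldhb at 5.74 in Ldhb_KO and 76.5 in WT, which fits the labels. Summed FPKM lay between 471595 and 526316, and depths estimated from low values were 1.05, 0.995 and 1.05 times WT in SO, Ldha_KO and Ldhb_KO. Among low genes the ratio of the value of 1 read between libraries was nearly fixed for SO with WT (a 10th to 90th percentile span of 0.0167%) and looser for Ldha_KO with WT (0.576%), Ldhb_KO with WT (0.431%) and Ldha_KO with Ldhb_KO (0.219%). By this measure SO stands with WT, apart from each knockout, and the part of this split in the results was not tested.

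The promoters of 3 keratins and of Cdx2 are shown because Tfap2c, which encodes an AP-2 factor, passed the rule in Ldhb_KO. They are examples from the set: Krt7, Krt18 and Cdx2 hold the AP-2 letters and Krt8 lacks them. The part of Tfap2c in the values of these genes was not tested. RefSeq (GRCm38.p6) gave promoters for 7 of the 10 genes, and none for Krt19, Tfap2c and Hand1. The stretches of Gata3, Eomes and Elf5 were searched but are not printed. Each run is the 250 bases before the start of the gene, 5′ to 3′ on the gene's strand, and capitals mark matches to the AP-2 motif GCCNNNGGC, the letters bound by factors of the Tfap2c family. Krt8 and Krt18 are next to each other on chromosome 15 and are read in opposite directions. Krt7 lies on the same chromosome, at chr15:101412153-101412402 for the stretch shown (plus strand). The stretch of Krt8 is chr15:102004343-102004592 (minus strand), that of Krt18 chr15:102027966-102028215 (plus strand) and that of Cdx2 chr5:147307250-147307499 (minus strand).
Krt7: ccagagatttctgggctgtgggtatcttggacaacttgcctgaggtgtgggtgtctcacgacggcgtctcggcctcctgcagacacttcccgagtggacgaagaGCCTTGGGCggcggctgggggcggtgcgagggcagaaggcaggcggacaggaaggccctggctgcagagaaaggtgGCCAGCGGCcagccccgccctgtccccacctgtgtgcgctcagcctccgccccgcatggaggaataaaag
Krt8: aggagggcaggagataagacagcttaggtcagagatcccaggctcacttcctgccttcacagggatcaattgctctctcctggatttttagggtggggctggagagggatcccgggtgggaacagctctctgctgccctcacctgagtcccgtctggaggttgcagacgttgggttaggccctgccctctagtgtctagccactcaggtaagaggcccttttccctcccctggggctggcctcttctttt
Krt18: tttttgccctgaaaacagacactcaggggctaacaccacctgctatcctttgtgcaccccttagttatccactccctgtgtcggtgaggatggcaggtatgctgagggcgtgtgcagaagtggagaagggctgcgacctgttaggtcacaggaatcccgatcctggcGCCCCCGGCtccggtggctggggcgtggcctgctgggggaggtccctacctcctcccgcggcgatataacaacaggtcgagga
Cdx2: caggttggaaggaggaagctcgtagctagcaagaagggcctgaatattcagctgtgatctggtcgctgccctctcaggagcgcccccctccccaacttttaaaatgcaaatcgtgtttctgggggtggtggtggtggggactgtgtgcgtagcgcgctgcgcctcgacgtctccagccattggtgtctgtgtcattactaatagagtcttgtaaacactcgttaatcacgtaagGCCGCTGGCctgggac

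The AP-2 letters were found in the promoters of Krt7 (2 matches), Krt18 (1), Cdx2 (1) and Gata3 (3), and not in those of Krt8, Eomes and Elf5. Of all 32851 promoter stretches of the same length, 13.7% held a match on either strand. The fixed letters of this motif are all G or C, and the median G and C content of all stretches was 52.4%. The stretches of Krt7, Krt18, Cdx2 and Gata3 lay above that median. Those of Krt8 and Elf5, without a match, also did, and that of Eomes lay below it. The 13.7% is not matched for this content, so an excess of AP-2 letters in the set was not tested. In Krt7 the match at positions -146 to -138 before the start overlaps a match to GGGCGG, the Sp/Klf motif, which 32.7% of promoters hold. Krt7 had 4 Sp/Klf matches, Gata3 2 and the other 5 genes none. The AP-1 letters TGANTCA (6.75% of promoters) and the TATA box letters TATAAA (12.4%) were found in none of the 7. Krt8 held AGATAA, the GATA motif, once (9.99% of promoters). Elf5 had 2 promoter entries. Its entry 1 held GGAATG, the TEAD motif (12.6% of promoters), and AGGTGT, the T-box motif (11.8%), once each. Its entry 2 held none of the motifs searched. Bases shortly after the start of Elf5 entry 1 and of Eomes were found in no annotated transcript of the gene, so these starts are less sure. The T-box motif also occurred in Krt7. A match describes letters in a window and is not a measured binding site.

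Krt19, a type I keratin with no tail domain, was the gene that stood out in every perturbed library. It was at 32.2 FPKM in SO, 20.4 in Ldha_KO and 34.1 in Ldhb_KO, against 6.38 in WT. All 3 perturbed libraries lay above WT, by 5.05-fold in SO, 3.20-fold in Ldha_KO and 5.34-fold in Ldhb_KO. On the log2(FPKM + 1) scale the differences were 2.17, 1.54 and 2.25, each past the 2-fold rule (a difference of 1 or more on this scale, among genes with at least 1 FPKM in at least 1 library). In bulk RNA, more cells with a transcript and more transcript per cell cannot be told apart, for Krt19 and for every gene below. Among the 13142 genes that passed the filter, the Krt19 difference ranked 27th from the top in SO, 96th in Ldha_KO and 10th in Ldhb_KO. WT levels of Krt19 rest on roughly 120 reads, estimated from transcript length and depth.

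**Figure D1:**
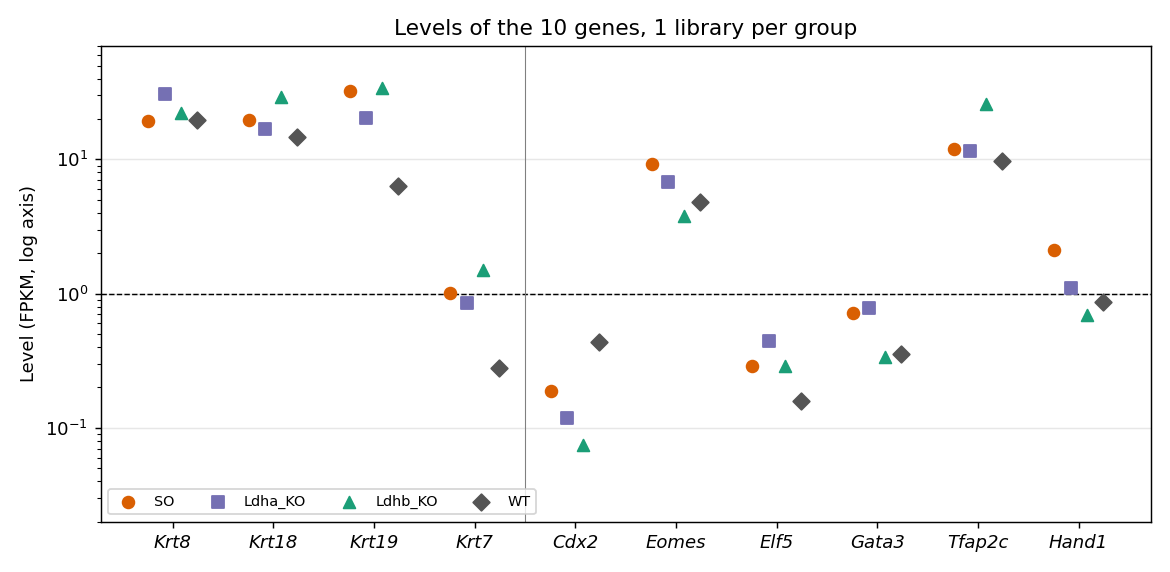
Level of each of the 10 genes in each library, in FPKM on a log axis, with 1 point per library and a dashed line at the filter of 1 FPKM. Keratins are left of the vertical line. Krt19 in WT (6.38 FPKM) lies well below the perturbed libraries (20.4 to 34.1 FPKM), and Cdx2 in WT (0.433 FPKM) lies above them.

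Krt8, the main type II partner, did not follow Krt19. Its level was 19.3 FPKM in SO, 30.6 in Ldha_KO and 22.3 in Ldhb_KO, against 19.7 in WT. SO and WT were close (a ratio of 0.979), and the largest difference was 0.61 on the log2(FPKM + 1) scale, in Ldha_KO, below the rule. The sign in SO (-0.03) turned to 0.12 after scaling each library to the WT sum and to 0.07 with the median ratio. A processed pseudogene, Krt8-ps, is annotated in mouse and can share reads with Krt8, so small differences of Krt8 are uncertain.

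Krt18, the type I partner of Krt8, had its highest value in Ldhb_KO. It was at 19.8 FPKM in SO, 17.0 in Ldha_KO and 29.0 in Ldhb_KO, against 14.8 in WT. WT was the lowest of the 4, and the fold against WT was 1.34, 1.15 and 1.96. The difference of 0.93 in Ldhb_KO lay just under the rule as deposited. After scaling to the WT sum, both Krt18 and Krt7 passed it in Ldhb_KO.

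Krt7, the other type II keratin, was rare. Its levels were 1.02 FPKM in SO, 0.847 in Ldha_KO and 1.49 in Ldhb_KO, against 0.280 in WT. WT was lowest again, by 3.63-fold, 3.02-fold and 5.33-fold. On the log2(FPKM + 1) scale the differences were 0.66, 0.53 and 0.96, none past the rule, since a pseudocount of 1 compresses values this low. With a pseudocount of 0.1, Krt7 passed the rule in all 3.

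The value of 1 read could be read from the low genes, because their values step in whole multiples that are fixed within a gene. The fewest whole reads that fit the 4 Krt7 values were 19 in SO, 15 in Ldha_KO, 28 in Ldhb_KO and 5 in WT. The ratio to WT had 95% intervals (exact Clopper-Pearson) of 1.31 to 12.4 in SO, 1.04 to 10.6 in Ldha_KO and 2.03 to 17.7 in Ldhb_KO. No annotated Krt7 transcript in GENCODE M21 matched the length these reads imply, so the true reads may be a multiple. Such intervals cover counting error only and compare these libraries, not the conditions.

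Together the simple keratins were more abundant in each perturbed library, and Krt19 took more of the sum. The 4 genes summed to 72.3 FPKM in SO, 68.8 in Ldha_KO and 86.9 in Ldhb_KO, against 41.1 in WT. Of the gain over WT, Krt19 alone made up 82.8% for SO, 50.7% for Ldha_KO and 60.6% for Ldhb_KO. Its share of the sum was 44.5%, 29.7% and 39.2% in these libraries, against 15.5% in WT. The share of Krt18, the other type I keratin, was lower than in WT, at 27.4%, 24.7% and 33.3%, against 35.9%. Krt8 was the most abundant of the 4 in Ldha_KO (44.4% of the sum) and in WT (47.9%), and Krt19 was in SO and Ldhb_KO.

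The ratio of type II to type I simple keratins was 0.391 in SO, 0.841 in Ldha_KO and 0.378 in Ldhb_KO, against 0.946 in WT. Values per length allow this comparison between genes. In WT the types were thus near balance at the RNA level, in Ldha_KO slightly less so, and in SO and Ldhb_KO type I prevailed. Krt8 over Krt18 alone gave 0.976, 1.80 and 0.771, against 1.34 in WT, so on that pair Ldha_KO lay above WT and the other 2 below it.

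**Figure D2:**
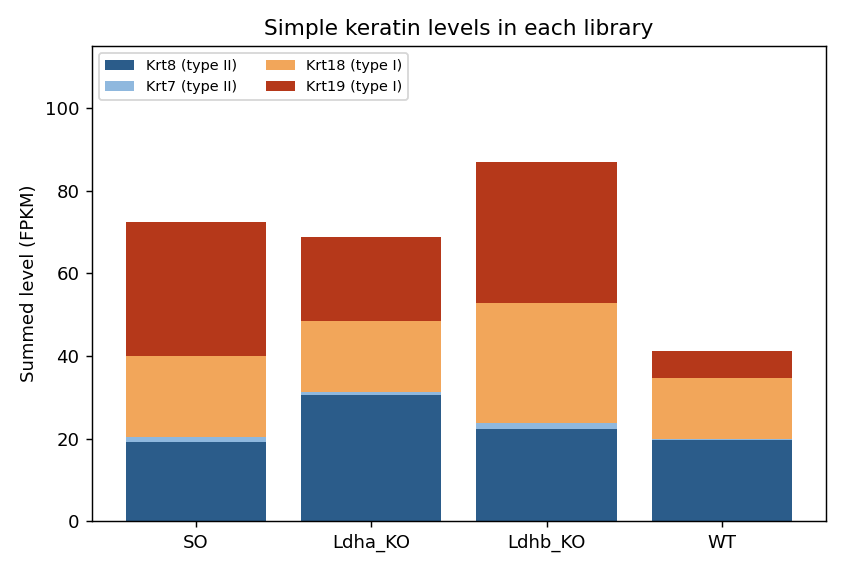
Summed level of the 4 simple keratins in each library, in FPKM, stacked by gene with type II in blue and type I in orange and red, 1 library per bar. The Krt19 segment is 32.2, 20.4 and 34.1 FPKM high in SO, Ldha_KO and Ldhb_KO and 6.38 FPKM in WT, while the Krt8 segment differs less.

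Of 55 keratin symbols in the tables, 9 reached 1 FPKM in some library, 34 were detected below it and 12 were listed at 0 throughout. Besides the simple keratins the 9 were Krt13, Krt17, Krt42, Krt79 and Krt222, and none of these 5 passed the rule. Against WT, 2.65% to 3.36% of all genes were higher and 0.472% to 1.09% lower, so 0 of 5 is near the background. Krt17, a keratin of appendages and stressed epidermis, was at 3.13 FPKM in SO, 2.84 in Ldha_KO and 6.08 in Ldhb_KO, against 3.97 in WT. Krt42 was at 6.76, 6.24 and 10.2 FPKM, against 7.89 in WT. For both, Ldhb_KO was the highest library and the other perturbed libraries lay below WT. Krt13, a keratin of stratified mucosa, was at 1.28 FPKM in SO, 0.483 in Ldha_KO and 0.203 in Ldhb_KO, against 0.214 in WT, and passed the filter through SO alone.

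Krt19 sits in the type I keratin cluster on chromosome 11, and its direct neighbours were nearly silent. Krt15 was at 0.341 FPKM in SO, 0.102 in Ldha_KO and 0.145 in Ldhb_KO, against 0.0509 in WT. Krt9, on the other side, was below 0.1 FPKM in every library. Next to the Krt8 and Krt18 pair, Krt78 was also below 0.1 FPKM in every library. Eif4b, a translation initiation factor on the far side of Krt18, was at 223, 261 and 232 FPKM, against 241 in WT.

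Of the 6 transcription factors, Cdx2, Elf5 and Gata3 lay below the filter and could not be called. Among the 3 kept, Tfap2c alone passed the rule in a comparison with WT, and it was so in Ldhb_KO. There 3.36% of all genes were higher and 1.09% lower, and a count of 1 gene is read as no result about the set. Tfap2c encodes AP-2 gamma, which acts in trophectoderm and in germ cell precursors. It was at 12.0 FPKM in SO, 11.5 in Ldha_KO and 26.1 in Ldhb_KO, against 9.80 in WT. SO, Ldha_KO and WT lay close together, and Ldhb_KO was 2.66-fold above WT, a difference of 1.33 on the log2(FPKM + 1) scale. Against each other, the knockouts differed 2.26-fold, with Ldha_KO lower (a difference of -1.11).

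Eomes, a T-box factor of trophoblast stem cells that is also used in the primitive streak, was highest in SO. Its levels were 9.22 FPKM in SO, 6.77 in Ldha_KO and 3.77 in Ldhb_KO, against 4.84 in WT. SO was 1.91-fold and Ldha_KO 1.40-fold above WT, and Ldhb_KO was at 0.778 of WT. None of these passed the rule, the largest difference being 0.81 on the log2(FPKM + 1) scale.

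Hand1, a basic helix-loop-helix factor needed for trophoblast giant cells, showed the same order of libraries. It was at 2.12 FPKM in SO, 1.09 in Ldha_KO and 0.690 in Ldhb_KO, against 0.862 in WT. The fewest reads that fit were 49, 24 and 16, against 19 in WT. The SO ratio of 2.47 had a counting interval of 1.43 to 4.43, and the intervals of Ldha_KO (0.666 to 2.45) and Ldhb_KO (0.385 to 1.64) included 1. Hand1 passed the 2-fold rule in SO with a pseudocount of 0.1 only, and it passed the filter only through SO and Ldha_KO.

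Cdx2, the homeodomain factor that sets trophectoderm fate, was the member with lower values in all 3 perturbed libraries. It was at 0.188 FPKM in SO, 0.119 in Ldha_KO and 0.0749 in Ldhb_KO, against 0.433 in WT. The fewest reads that fit were 5, 3 and 2, against 11 in WT. The ratio to WT was 0.434 in SO (interval 0.118 to 1.36), 0.274 in Ldha_KO (0.0491 to 1.04) and 0.173 in Ldhb_KO (0.0186 to 0.792). Only the last interval lay below 1. Cdx2 did not reach the filter of 1 FPKM in any library.

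Gata3, a zinc finger factor of trophectoderm, was also low throughout. Its levels were 0.720 FPKM in SO, 0.782 in Ldha_KO and 0.335 in Ldhb_KO, against 0.352 in WT. The reads that fit were 30, 31 and 14, against 14 in WT. SO (2.05, interval 1.05 to 4.18) and Ldha_KO (2.23, interval 1.15 to 4.53) lay above WT by counting, and Ldhb_KO did not (0.950, interval 0.420 to 2.15). Elf5, an Ets factor of trophoblast stem cells, was at 0.290, 0.441 and 0.289 FPKM, against 0.159 in WT. No whole reads of 50 or fewer fitted Elf5, and its level corresponds to roughly 3 reads in WT and 8 in Ldha_KO.

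**Figure D3:**
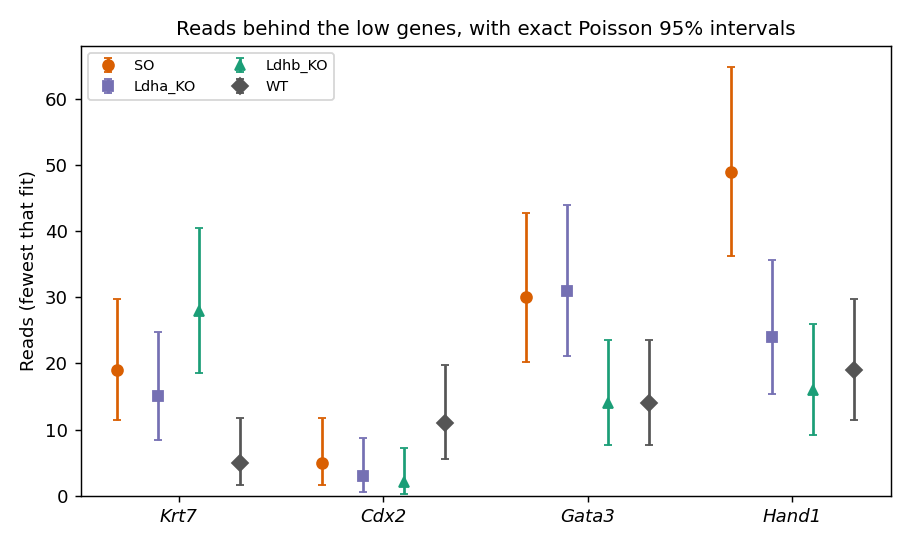
Fewest whole reads that fit the deposited values of the low genes, 1 point per library, with exact Poisson 95% intervals for counting error. Cdx2 has 5, 3 and 2 reads in SO, Ldha_KO and Ldhb_KO and 11 in WT, and Krt7 has 19, 15 and 28 reads in these libraries and 5 in WT.

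Neither the keratins nor the regulators had 1 common order of libraries. Eomes and Hand1 were highest in SO and lowest in Ldhb_KO, and Gata3 had as few reads in Ldhb_KO as in WT. Krt7, Krt18, Krt19 and Tfap2c were highest in Ldhb_KO. Krt8 and Elf5 were highest in Ldha_KO. WT was the lowest library for Krt7, Krt18, Krt19, Elf5 and Tfap2c, and the highest only for Cdx2.

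**Figure D4:**
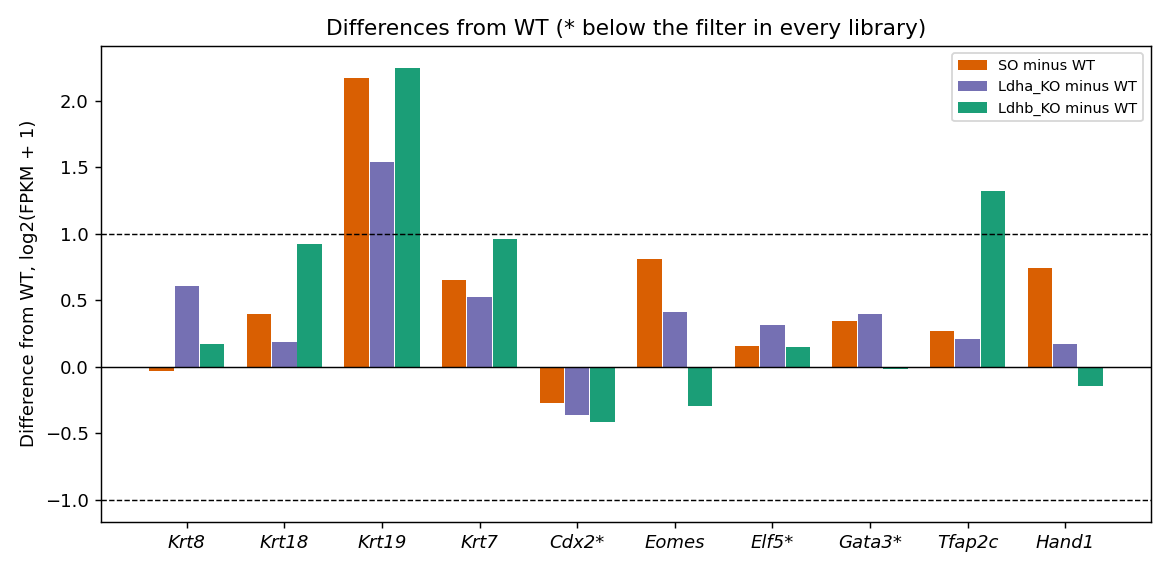
Difference of each gene from WT on the log2(FPKM + 1) scale, 1 bar per perturbed library, with dashed lines at the 2-fold rule of 1 and -1. Krt19 passes the rule in all 3 (2.17, 1.54 and 2.25), Tfap2c in Ldhb_KO (1.33), and no other bar does.

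By count, 7 of the 10 genes passed the filter, and Cdx2, Elf5 and Gata3 did not. In SO against WT, 1 of the 7 was called higher and 0 lower, where 2.69% of all 13142 genes were called higher and 0.472% lower. In Ldha_KO against WT, 1 was called higher and 0 lower, beside 2.65% and 1.06% of all genes. In Ldhb_KO against WT, 2 were called higher and 0 lower, beside 3.36% and 1.09%. In Ldha_KO against Ldhb_KO, 0 were called higher and 1 lower, beside 1.67% and 1.54%. The median difference of the 7 was 0.66 in SO, 0.41 in Ldha_KO and 0.93 in Ldhb_KO, where the median of all kept genes was -0.04, -0.03 and -0.02. Krt7 and Hand1 passed the filter only through perturbed libraries, so they had to be higher there and these medians lend no support. The 3 comparisons with WT share the WT library. Scaling to the WT sum moved the median of all genes in SO to 0.10. It also moved the share of higher genes among those called to 83.3% in Ldha_KO (71.5% as deposited) and to 86.4% in Ldhb_KO (75.5%).

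Other regulators of trophoblast were examined as a list of 18, of which 15 were kept. Ldha_KO had 3 of these higher than WT, SO and Ldhb_KO had 0, and 0 were lower in each, beside 2.65%, 2.69% and 3.36% of all genes higher in Ldha_KO, SO and Ldhb_KO. Id2, an inhibitor of helix-loop-helix factors, was at 72.3 FPKM in SO, 153 in Ldha_KO and 106 in Ldhb_KO, against 57.0 in WT, and passed the rule in Ldha_KO. Sox21 was at 1.61, 3.30 and 0.617 FPKM, against 1.05 in WT, and the placental homeobox gene Esx1 at 7.91, 9.9996 and 6.28 FPKM, against 4.27 in WT. Both passed in Ldha_KO. Tead4, the cofactor-dependent activator of Cdx2, was at 9.05, 7.66 and 5.83 FPKM, against 7.39 in WT, and did not pass.

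The Hippo pathway controls Cdx2 in the embryo through Yap1 and Tead4. Of 20 kept genes of this list, 0 were higher in SO, 2 in Ldha_KO and 0 in Ldhb_KO, beside 2.69%, 2.65% and 3.36% of all genes. The 2 were the secreted Yap1 targets Ccn2 and Ccn1. Ccn2 was at 21.9 FPKM in SO, 54.1 in Ldha_KO and 9.68 in Ldhb_KO, against 10.5 in WT. Ccn1 was at 14.4, 24.7 and 7.91 FPKM, against 6.72 in WT. In SO the differences of both lay just under the rule, at 0.99988 for Ccn2 and 0.99 for Ccn1. Yap1 itself was at 45.0, 49.7 and 45.8 FPKM, against 54.5 in WT. In Ldhb_KO, Ccn1 and Ccn2 lay at 0.21 and -0.10 from WT. The part of the Hippo pathway in the keratin values was not tested.

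Among 21 kept epithelial genes of the trophectoderm, 1 was higher in SO, 2 in Ldha_KO and 1 in Ldhb_KO, beside 2.69%, 2.65% and 3.36% of all genes. Counts of 1 or 2 genes are read as no result about the list, and the medians of -0.06, -0.01 and 0.02 were near those of all genes (-0.04, -0.03 and -0.02). Aqp3, a water and glycerol channel, was at 44.0 FPKM in SO, 62.6 in Ldha_KO and 14.8 in Ldhb_KO, against 15.4 in WT, and passed in SO and Ldha_KO. Fabp3, a fatty acid carrier, was at 118, 165 and 91.8 FPKM, against 68.6 in WT, and passed in Ldha_KO. Cldn7, a tight junction claudin, was at 9.08, 8.50 and 28.8 FPKM, against 12.5 in WT, and passed in Ldhb_KO, as Tfap2c did. Cdh1, the epithelial cadherin, was at 209, 169 and 193 FPKM, against 224 in WT. Dsp, which anchors keratin at desmosomes, was at 3.66, 6.01 and 5.06 FPKM, against 3.20 in WT, and passed in none.

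Of 4 kept placental trophoblast products, none passed the rule in any comparison with WT. Over all genes, 2.65% to 3.36% were higher and 0.472% to 1.09% lower in these comparisons. Rhox6, a homeobox gene of the placenta and germ line, was at 6.62 FPKM in SO, 8.01 in Ldha_KO and 7.21 in Ldhb_KO, against 3.96 in WT. Among 18 kept filament and keratin partner genes, 1 passed, Krtcap3, which was lower in Ldha_KO (2.46 FPKM, against 7.53 in WT). Counts this small are read as no result about either list. Vim, the mesenchymal intermediate filament, was at 158, 153 and 134 FPKM, against 209 in WT.

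**Figure D5:**
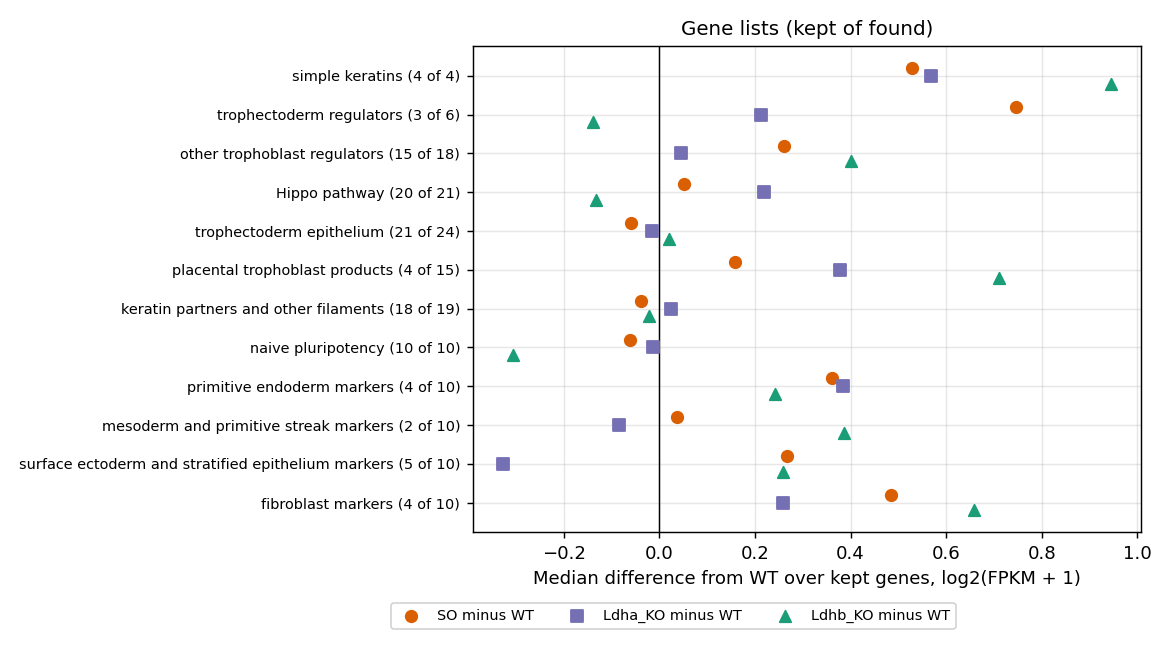
Median difference from WT of each gene list on the log2(FPKM + 1) scale, over the kept genes (number kept of number found in parentheses), with 1 marker per perturbed library. The trophectoderm epithelium lies at -0.06 for SO, -0.01 for Ldha_KO and 0.02 for Ldhb_KO. Medians of short lists rest on few genes, and that of the simple keratins includes Krt7, which passed the filter only through SO and Ldhb_KO. Other lists also hold genes kept only through perturbed libraries. Among them are Hand1 (trophectoderm regulators), Pdgfrb and Fbln2 (fibroblast), Gata4 (primitive endoderm), Syna and Mmp9 (placental) and Tbx6 (mesoderm). The filter thus partly sets these medians, which lend no support.

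Keratins and several of these factors are also used outside the trophectoderm, so markers of other cell types were read beside them. Against WT, 2.65% to 3.36% of all genes were higher and 0.472% to 1.09% lower. Counts of a few called markers are therefore read as no result about a list. The 10 primitive endoderm markers summed to 14.2 FPKM in SO, 18.1 in Ldha_KO and 15.5 in Ldhb_KO, against 12.0 in WT. None of the 4 kept passed the rule, and Sox17, a defining endoderm factor, was at 0.0702, 0.361 and 0.0802 FPKM and listed at 0 in WT. The 10 mesoderm and primitive streak markers summed to 4.80, 2.93 and 4.14 FPKM, against 2.80 in WT, and 2 were kept. The 10 markers of surface ectoderm and stratified epithelium summed to 132, 67.0 and 94.4 FPKM, against 93.7 in WT. Of the 5 kept, Perp was higher in SO (49.8 FPKM, against 11.6 in WT) and Grhl2 lower in Ldha_KO (2.97 FPKM, against 8.65 in WT). Trp63, Krt5 and Krt14, which define stratified epithelium, stayed below 0.4 FPKM in every library. Other markers of this list were expressed. Sfn was at 55.1 FPKM in SO, 35.6 in Ldha_KO and 53.2 in Ldhb_KO, against 61.7 in WT. Grhl3 was at 19.6, 8.33 and 11.9 FPKM, against 9.82 in WT. Neither passed the rule. The 10 fibroblast markers summed to 48.9, 42.6 and 54.1 FPKM, against 50.3 in WT, with Thy1 making up most of the sum and Dcn and Lum listed at 0 everywhere. Pdgfrb, the 1 fibroblast marker past the rule, was at 3.35 FPKM in SO, 2.80 in Ldha_KO and 3.63 in Ldhb_KO, against 0.949 in WT, and passed in SO and Ldhb_KO. Fbln2 was at 1.77, 1.28 and 2.296 FPKM, against 0.727 in WT, and Col1a1 at 1.69, 1.39 and 1.87 FPKM, against 1.20 in WT, both short of the rule. These 3 of the 4 kept fibroblast markers had the same order of libraries as Krt19, and Thy1 did not. Pdgfrb and Fbln2 were below 1 FPKM in WT and passed the filter only through perturbed libraries. Their order was thus partly set by the filter. The part of fibroblasts in the keratin values was not tested.

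Genes with the pattern most like each keratin were found by the smallest Euclidean distance between their 3 differences from WT. The search covered 8966 genes outside the lists that averaged at least 5 FPKM over the 4 libraries. For Krt19 the nearest was P4ha2, a collagen prolyl hydroxylase subunit, at 24.0 FPKM in SO, 17.2 in Ldha_KO and 20.9 in Ldhb_KO, against 4.63 in WT (distance 0.329). Anxa2 (distance 0.669) and Ndufa4l2 (distance 0.721) followed. For Krt18 the nearest were Mvp (distance 0.0688), Msmo1 (0.0913) and Tubb6 (0.0924). For Krt8 they were Tmem251 (0.0372), Clk4 (0.0709) and Ccdc88a (0.0907). The distances for Krt19 were larger than those for Krt8 and Krt18. Krt19 ranked near the top of all 3 differences, where fewer genes lie, so its larger distances are read as no result. With 4 libraries, no statement on shared control is possible.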

How the data were processed

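Bowtie2 2.3.4.3, edgeR 3.26.8, HTSeq 0.11.2, SAMtools 1.9 and the build mm9 are named, per the submitters' processing notes, without roles. No annotation is named there. The deposited values, 1 per gene symbol and library, were read as FPKM made by the authors. This was judged from the values, and RPKM could not be told apart.

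Differences were taken on log2(FPKM + 1), over genes with at least 1 FPKM in at least 1 library, and a gene was called at a difference of 1 or more in size (2-fold). The rule was tested on simulated data. Alternatives were a pseudocount of 0.1, no filter, a filter of 5 and 2 rescalings. The step of 1 read was found from genes below 0.2 FPKM. Whole reads of 50 or fewer fitted 65.7% of 4612 low genes, against 17.6% and 18.0% with the steps moved by 3% and 5%, and 47.5%, 2.34% and 3.43% at 30 or fewer. Reads above 30 (Gata3, Hand1) are thus less sure. The depth implied by transcript length was about 12000000 reads in WT. The read counts were added after the values were seen. The step tolerance was 0.01 reads plus 0.4% of the count.

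All 10 members are named, with keratins of at least 1 FPKM, up to 4 called genes per list, markers at 0 and the 3 nearest genes of Krt8, Krt18 and Krt19. Further genes were named once their values had been seen. Members and lists were chosen with earlier results of these data known. All entries of the lists were found by symbol or RefSeq synonym. Python 3.11.15, pandas 2.3.3 and SciPy 1.17.1 were used. Motifs and neighbours come from RefSeq GRCm38.p6, lengths from GENCODE M21, not the authors' build.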

Additional observations from a re-analysis of the deposited data

How the results depend on the processing

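Krt19 passed the 2-fold rule in SO, Ldha_KO and Ldhb_KO against WT, and Tfap2c in Ldhb_KO against WT and in Ldha_KO against Ldhb_KO, under all 5 alternatives. Of 180 values of single genes under an alternative, 172 kept their call and 8 gained one. No filter (40 values) and the filter of 5 (20 values) left each difference unaltered, so they could change no call, including those of Krt19 and Tfap2c. With a pseudocount of 0.1, Cdx2 reached -1.29 in Ldha_KO and -1.61 in Ldhb_KO against WT, and Elf5 1.06 in Ldha_KO. Gata3 reached 1.02 in Ldha_KO against Ldhb_KO. They stayed uncalled only because they lay below the filter. With a pseudocount of 0.1, 3 members were called in SO (Krt7, Krt19 and Hand1), 2 in Ldha_KO (Krt7 and Krt19) and 3 in Ldhb_KO (Krt7, Krt19 and Tfap2c). With scaling to the WT sum or to the median ratio, 4 were called in Ldhb_KO (Krt7, Krt18, Krt19 and Tfap2c). Counts over all genes were 990 in SO, 1189 in Ldha_KO, 1452 in Ldhb_KO and 993 in Ldha_KO against Ldhb_KO with a pseudocount of 0.1 (415, 487, 584 and 421 as reported). With a filter of 5 they were 274 in SO and 380 in Ldhb_KO. Krt8 over Krt18 alone gave a balance of 0.976 in SO, 1.80 in Ldha_KO, 0.771 in Ldhb_KO and 1.34 in WT. The small difference of Gata3 in Ldhb_KO (-0.02) turned to 0.01 under both rescalings, with no call. No paired analysis was possible because each group has 1 library. Precision is limited by the single libraries and, for Cdx2, Elf5, Gata3, Hand1 and Krt7, by few reads.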

Other observations

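Ascl2, a factor of the placental spongiotrophoblast, differed between the knockouts more than any of the 6 transcription factors above. It was at 3.60 FPKM in Ldha_KO, against 13.2 in Ldhb_KO (a difference of -1.63 on the log2(FPKM + 1) scale), and at 5.52 in SO and 6.77 in WT. Cldn7 and Cldn6 were also lower in Ldha_KO than in Ldhb_KO, at 8.50 FPKM against 28.8 and at 37.6 FPKM against 76.9. The reverse held for Ccn2 (54.1 FPKM in Ldha_KO, against 9.68 in Ldhb_KO), Aqp3 (62.6, against 14.8) and the Hippo adaptor Mob1b (9.11, against 3.39). Bmp7, the gene next to Tfap2c on chromosome 2, was at 2.14 FPKM in SO, 1.59 in Ldha_KO and 2.31 in Ldhb_KO, against 0.848 in WT, the same order of libraries as Tfap2c, though for Bmp7 all 3 perturbed libraries lay apart from WT. These genes were chosen after their values were seen, and no value has a replicate.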
